A study of Mus musculus with 8 samples.

Results

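The genes described here govern whether a CD8 T cell leaves a tissue or stays in it. They are the 9 rows, of 55335 in the gene count table, whose symbols are S1pr1, S1pr5, Klf2, Klf3, Cd69, Itgae, Itga1, Zfp683 and Rgs1, and they were chosen by name. Earlier results of these data were known when they were chosen, so shares of all genes set beside them are no independent test. The counts come from RNA sequencing of CD8+ T cells (tumor-infiltrating lymphocytes, TILs) taken from subcutaneous MC38 tumors, a colon carcinoma of C57BL/6 origin, in C57BL/6 mice. The 4 wildtype (WT) samples came from Lsd1f/f mice, which carry floxed alleles of Lsd1 (Kdm1a, a histone demethylase) and no Cre, and the 4 knockout (KO) samples from Cd4-Cre+Lsd1f/f mice. Cd4-Cre acts in developing T cells, so CD4 T cells of these mice lose LSD1 as well. A WT sample is a pool of 2 mice, while a KO sample is a single animal. All 8 were sorted on CD8, CD44 and PD-1 among CD45.2+ cells bearing the αβ T cell receptor, on day 18 after tumor injection by the sample protocol and on day 14 by the series design text. The WT samples are named S1, S2, S3 and S4 here, and the KO samples S5, S6, S7 and S8.

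S1PR1 and S1PR5 are receptors for sphingosine 1-phosphate, a lipid that is abundant in blood and lymph and draws T cells out of tissues. The transcription factor KLF2 switches on S1pr1, and CD69 binds S1PR1 and removes it from the cell surface, so that CD69+ cells are held back. Resident memory T cells also use the integrin chains CD103 (Itgae), which pairs with β7 and binds E-cadherin on epithelium, and CD49a (Itga1), which pairs with β1 and binds collagen. HOBIT (Zfp683) represses egress genes in resident cells, and RGS1 dampens signals from G protein-coupled receptors.

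Library totals ran from 11657807 to 30295406 counts, S8 being the deepest. Counts of Kdm1a were lower in KO (25.2 to 34.8 CPM, the TMM-normalized count scaled to library size) than in WT (42.7 to 47.2 CPM) without overlap. The log2 fold change was -0.55 (SE 0.14), with edgeR's adjusted p = 0.0163, which missed the threshold. These counts are summed over all exons of the gene, floxed or not, and give no measure of LSD1 protein. A call here required a fold change over 1.5 and a Benjamini-Hochberg adjusted p under 0.01 in edgeR's quasi-likelihood test over 15378 genes. By that rule 2.91% of genes were called higher in KO and 1.99% lower. Of the 9 residency and egress genes, 2 were called higher (Itgae and Itga1), 0 lower, and 7 were not called. DESeq2 gave the same counts, with 4.02% of all genes called higher and 3.0% lower. At an unadjusted p under 0.05 in edgeR the counts were again 2 and 0, with 12.4% of all genes higher and 12.1% lower. Itga1 lost its call in a fit with a myeloid score as covariate, which moves with genotype, given with the markers of other cells. KO samples lay above WT samples without overlap for 2 of the 9, against 8.99% of all genes tested, and below for 0 of the 9, against 8.28%. S8 stood apart from the other KO samples for several of the genes, so values without it are given beside the results. It was singled out by its values for these genes, so calls made without it are no independent test. Without S8, 2.85% of 15654 genes were called higher and 1.94% lower.

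**Figure D1:**
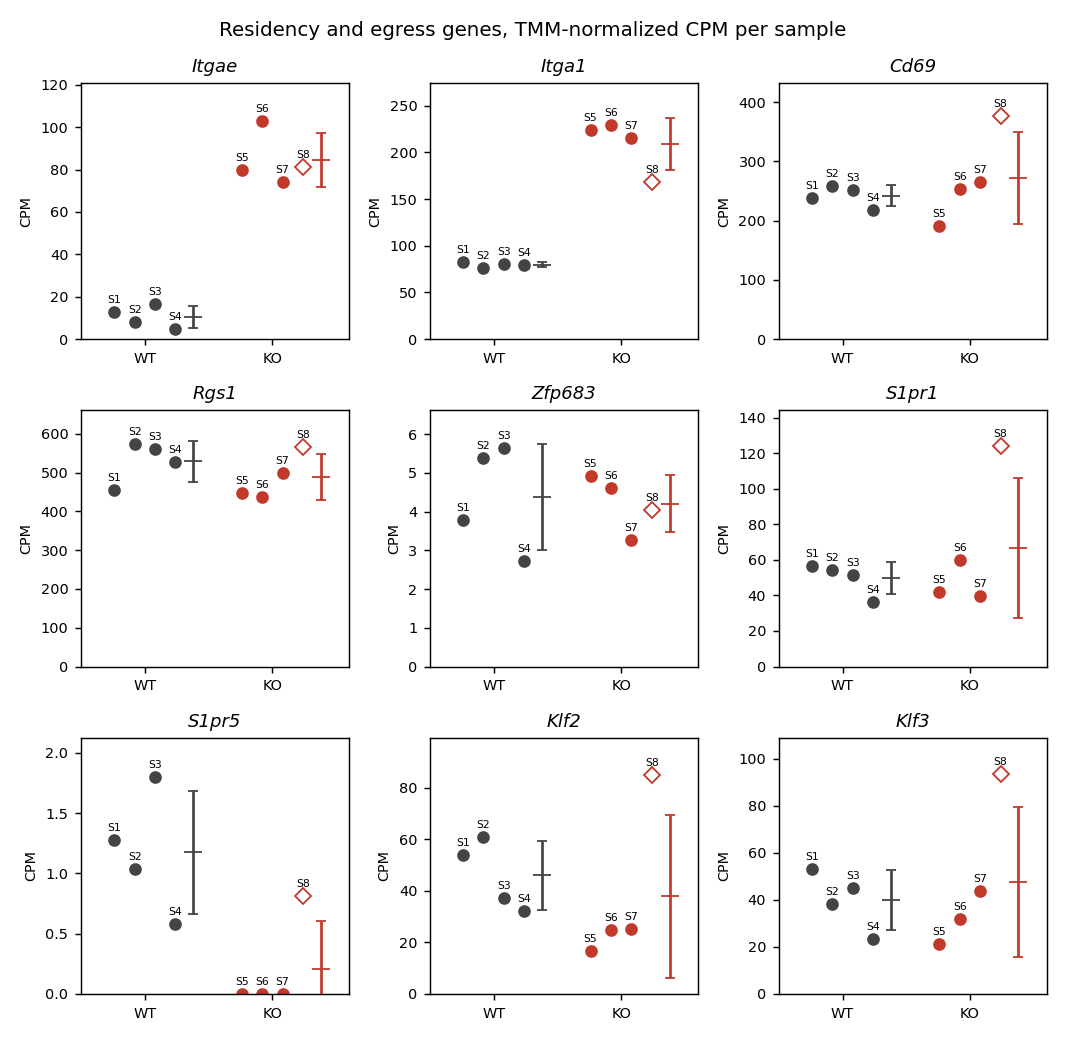
CPM of the 9 genes (vertical axes, each from 0) in the 4 WT samples and the 4 KO samples, with the mean and SD of each group beside the points and S8 as an open diamond. Every KO sample lay above every WT sample for Itgae and Itga1, and S8 was the highest of the 8 samples for S1pr1, Klf2, Klf3 and Cd69.

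Upstream sequence from RefSeq (GRCm38.p6) was held for 4 of the 9 genes: S1pr5, Klf2, Klf3 and Itga1. Shown 5′ to 3′ along each gene's strand are the bases before the start site of the integrin gene that rose, Itga1, and of the egress genes Klf2 and S1pr5 whose KO values turned on S8. Capitals mark CACCC, or GGGTG on the other strand, the core of the box that Krüppel-like factors bind. Itga1 lies on chromosome 13, minus strand, and the stretch is chr13:115101965-115102214. Klf2 lies on chromosome 8, plus strand, and the stretch is chr8:72318812-72319032, ending where GENCODE begins the gene. S1pr5 lies on chromosome 9, minus strand, and the stretch is chr9:21248444-21248693.
Itga1: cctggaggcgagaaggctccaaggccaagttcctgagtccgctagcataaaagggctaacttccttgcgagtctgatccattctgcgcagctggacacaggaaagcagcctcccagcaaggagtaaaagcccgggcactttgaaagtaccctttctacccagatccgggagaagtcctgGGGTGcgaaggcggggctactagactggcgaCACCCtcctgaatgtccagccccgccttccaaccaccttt
Klf2: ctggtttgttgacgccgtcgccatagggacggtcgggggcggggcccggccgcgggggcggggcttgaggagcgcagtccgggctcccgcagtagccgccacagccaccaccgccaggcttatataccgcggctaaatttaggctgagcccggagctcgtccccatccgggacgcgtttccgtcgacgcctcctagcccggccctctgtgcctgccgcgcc
S1pr5: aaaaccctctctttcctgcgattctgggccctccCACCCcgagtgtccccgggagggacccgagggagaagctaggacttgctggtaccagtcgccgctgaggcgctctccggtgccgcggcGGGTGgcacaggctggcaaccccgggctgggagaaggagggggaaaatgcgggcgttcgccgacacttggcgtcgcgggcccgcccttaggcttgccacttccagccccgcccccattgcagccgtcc

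In the full windows of 250 bases, CACCC was found 2 times for Itga1, 2 times for S1pr5 and 5 times for Klf3. The 1 match for Klf2 lay past the printed end. For Klf3 only 117 bases of the window lie before the start of the gene, and some of its CACCC matches lay past that start. Of all 32851 upstream windows of that length, 52.0% held at least 1 such match. The GC box GGGCGG was found 2 times for Klf2, 2 times for S1pr5 and 6 times for Klf3, and not for Itga1, against 32.7% of all windows holding it. The exact strings TGTGGT (for RUNX), CTTTGAT (for TCF) and GTAAACA (for FOXO) were in none of the 4 windows. Of all windows, 14.0%, 3.21% and 3.17% held them. Other forms of these motifs were not searched, so their absence is not shown. The printed Itga1 stretch holds ctttgaa, which differs from the TCF string in the last base only. All motifs were searched on both strands.

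Itgae, which encodes CD103, rose the most of the 9. It was at 12.8, 8.12, 16.6 and 4.70 CPM in the WT samples and at 79.9, 103, 73.9 and 81.4 CPM in the KO samples. All KO samples lay far above all WT samples, and S8 was among the others. The WT mean was 10.6 ± 5.21 CPM (SD, n = 4), and the KO mean was 84.5 ± 12.8 CPM (SD, n = 4). The log2 fold change was 3.00 (SE 0.27, 95% interval 2.43 to 3.57, edgeR adjusted p = 1.19e-06), an 8-fold difference. The exact two-sided permutation test over samples gave p = 0.0286, the smallest that 4 samples against 4 allow. The gene spans 73090583 to 73147446 on chromosome 11 (GRCm38, plus strand). Haspin, a gene within that span on the opposite strand, shares no exon bases with it and stood at 15.3 to 21.4 CPM with a log2 fold change of -0.06.

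Itga1, which encodes CD49a, rose as well. The call was lost with the myeloid covariate, which moves with genotype (log2 fold change 1.62, edgeR adjusted p = 0.0149). Over all genes that fit called 28 higher and 3 lower, against 447 and 306 without the covariate. Itga1 was at 82.4, 76.1, 80.8 and 79.9 CPM in WT and at 224, 229, 215 and 168 CPM in KO. The WT samples were tightly grouped, and S8 was the lowest KO sample while still above every WT sample. The means were 79.8 ± 2.66 CPM (SD, n = 4) and 209 ± 28.0 CPM (SD, n = 4), with a log2 fold change of 1.39 (SE 0.11, 95% interval 1.15 to 1.62, edgeR adjusted p = 3.83e-07). That is a 2.62-fold difference, and without S8 the log2 fold change was 1.48 (SE 0.10). Itga1 spans 114953096 to 115101964 on chromosome 13 (GRCm38, minus strand). A predicted gene, Gm49395, shares 685 exon bases with it on the same strand and held 1.79% as many counts.

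The partner chains of these integrins did not move as a group. Itgb7, the β7 chain of CD103, was at 173, 135, 122 and 122 CPM in WT and at 226, 338, 342 and 371 CPM in KO. Every KO sample lay above every WT sample, and the log2 fold change was 1.21 (SE 0.15, edgeR adjusted p = 3.79e-05). Itga4, the α4 chain, which also pairs with β7, was at 618, 494, 379 and 335 CPM in WT and at 154, 291, 230 and 323 CPM in KO, and fell by 0.87 on the log2 scale (SE 0.20, edgeR adjusted p = 0.00897), a call that DESeq2 did not make. The β1 chain of CD49a, Itgb1, was at 545, 571, 539 and 522 CPM in WT and at 423, 486, 435 and 736 CPM in KO. S8 was the highest of the 8 samples for Itgb1 and the other 3 KO samples were the lowest, with a log2 fold change of -0.06 (adjusted p = 0.845) over all samples and -0.28 (adjusted p = 0.0703) without S8. Cdh1, the E-cadherin that CD103 binds, was at 13.4 to 28.9 CPM in WT and 21.0 to 31.7 CPM in KO, and was not called. Of the 11 genes in the list of integrin partners and other T cell integrins, 1 was called higher and 1 lower, beside 2.91% and 1.99% of all genes. Their median log2 fold change was -0.06, against -0.01 over all genes. At an unadjusted p under 0.05 in edgeR, 4 of the 11 were higher and 2 lower, beside 12.4% and 12.1% of all genes. Without S8, 2 were called higher, Itgb2 (the β2 chain, log2 fold change 0.60, edgeR adjusted p = 0.000845) joining Itgb7.

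**Figure D2:**
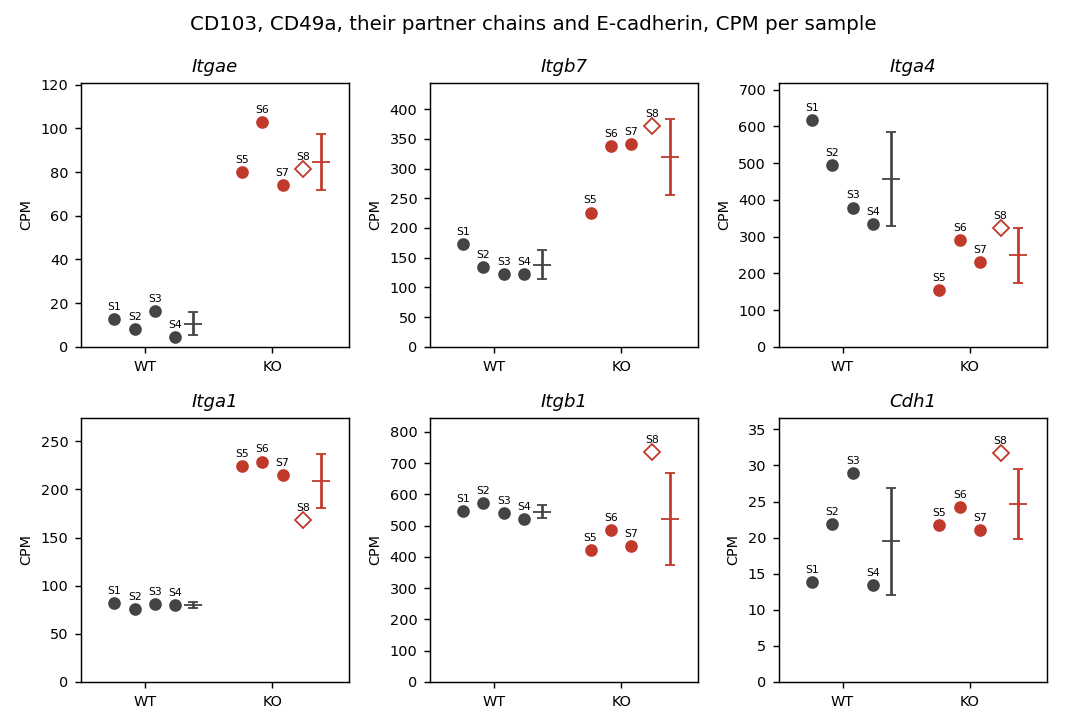
CPM of Itgae and Itga1 with the integrin chains that pair with them or their partners and with E-cadherin (vertical axes, each from 0), in 4 WT and 4 KO samples, with group means and SD and S8 as an open diamond. Itgae, Itgb7 and Itga1 were higher in all 4 KO samples, Itga4 was lower in all 4, and Itgb1 in S8 (736 CPM) lay apart from the other KO samples (423 to 486 CPM).

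The egress receptor S1pr1 was not called. Its values were 56.4, 54.2, 51.4 and 36.5 CPM in WT and 42.1, 60.0, 39.8 and 124 CPM in KO. S5 to S7 lay within or near the WT range, and S8 was 2.06 times the highest other sample. The log2 fold change was 0.43 (SE 0.27, 95% interval -0.15 to 1.01, edgeR adjusted p = 0.375), and without S8 it was -0.07 (95% interval -0.45 to 0.31, adjusted p = 0.876). The direction therefore rested on S8.

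S1pr5, the other egress receptor, was close to the limit of detection. The WT samples held 22, 19, 22 and 7 counts (1.28, 1.04, 1.80 and 0.577 CPM), and the KO samples held 0, 0, 0 and 23 counts, the last being 0.809 CPM in S8. At the level of S8, S5, S6 and S7 would be expected to hold 12.3, 10 and 9.69 counts. The log2 fold change over all samples was -2.29 (SE 1.20, 95% interval -4.83 to 0.25, edgeR adjusted p = 0.261). Without S8 all 3 remaining KO samples were at 0, and set against the highest floor of a library among them (3 counts, 0.25 CPM) the KO level was at least 4.68-fold lower than the WT mean of 1.17 CPM, with edgeR's adjusted p = 0.0256, short of the threshold. Floors and counts such as these cover counting error only.

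Klf2, the transcription factor that drives S1pr1, was the 1 gene of the 9 that gained a call when S8 was left out. It was at 53.8, 60.8, 37.4 and 32.3 CPM in WT and at 16.7, 24.9, 25.1 and 85.0 CPM in KO. S5 to S7 lay below every WT sample, as did 11.2% of all genes, whereas S8 lay above every WT sample and at 3.82 times the mean of the other KO samples. Over all 8 samples the log2 fold change was -0.27 (SE 0.37, 95% interval -1.05 to 0.52, edgeR adjusted p = 0.733). Without S8 the KO mean was 22.3 ± 4.77 CPM (SD, n = 3) beside a WT mean of 46.0 ± 13.4 CPM (SD, n = 4), and Klf2 was called lower, at -1.05 (SE 0.23, 95% interval -1.53 to -0.57, adjusted p = 0.00622). S8 was singled out by its values for these genes, so tests without it are not independent of that choice. The exact two-sided permutation test without S8 gave p = 0.0571, the smallest that 3 samples against 4 allow. For S1pr1, by contrast, S5 to S7 were not below the WT samples.

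Klf3, a repressor of the same family, was at 53.3, 38.4, 45.2 and 23.3 CPM in WT and at 21.4, 31.8, 43.7 and 93.5 CPM in KO. S5 to S7 overlapped the WT range, and S8 was 1.75 times the highest other sample. The log2 fold change was 0.26 (SE 0.34, adjusted p = 0.713) and became -0.31 (adjusted p = 0.52) without S8. C230096K16Rik, an uncharacterised gene within the span of Klf3 on the same strand, shares no exon bases with it and was also highest in S8 (13.5 CPM, against 1.44 to 6.97 CPM in the other 7 samples); it was picked after its values were seen.

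Cd69, whose product retains cells by removing S1PR1 from the surface, was abundant in every sample. It was at 239, 259, 252 and 218 CPM in WT and at 191, 253, 266 and 377 CPM in KO. S8 was again the highest, and S5 was the lowest. The log2 fold change was 0.17 (SE 0.15, 95% interval -0.15 to 0.49, edgeR adjusted p = 0.558), and -0.03 (adjusted p = 0.916) without S8.

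The remaining residency genes, Zfp683 and Rgs1, overlapped between the groups. Zfp683, encoding HOBIT, was low throughout, at 3.78, 5.39, 5.63 and 2.72 CPM in WT and 4.92, 4.61, 3.26 and 4.04 CPM in KO. Its log2 fold change of -0.06 had a wide 95% interval of -0.87 to 0.75 (edgeR adjusted p = 0.955). Rgs1 was at 456, 573, 562 and 528 CPM in WT and at 448, 438, 498 and 567 CPM in KO, and its log2 fold change of -0.12 had a narrow interval of -0.34 to 0.10 (adjusted p = 0.547). Zfp683 thus allowed changes in either direction that Rgs1 did not.

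**Figure D3:**
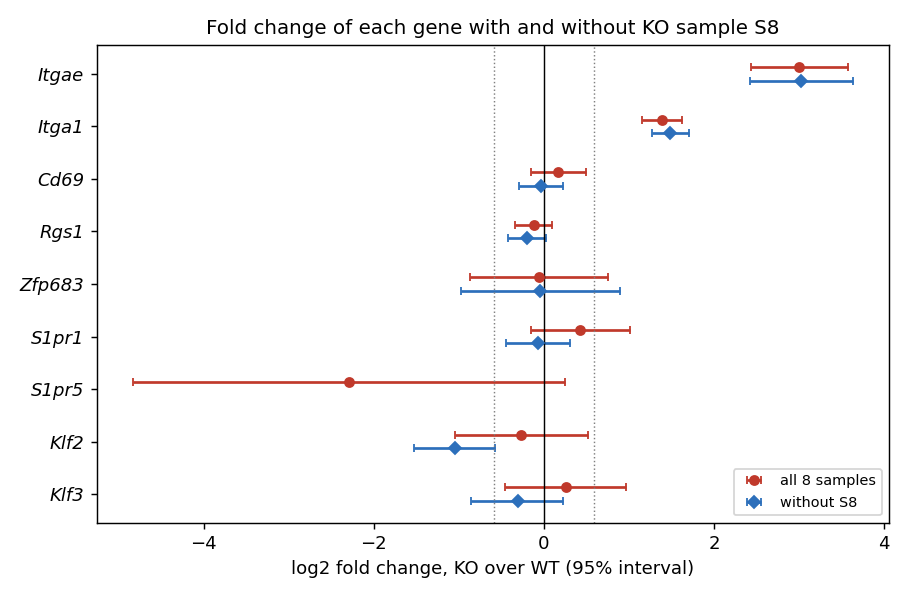
Log2 fold change of KO over WT (horizontal axis) with its 95% interval from edgeR for each gene, over all 8 samples (red circles) and without S8 (blue diamonds); dotted lines mark a 1.5-fold change, and S1pr5 without S8 is left out because all remaining KO samples were at 0. Itgae and Itga1 stayed well right of the dotted line with and without S8, and Klf2 moved from -0.27 to -1.05.

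Per length of exon, the 9 genes differed widely in level. In WT the order of mean RPKM (reads per kilobase of merged exons, from the CPM) was Rgs1 (76.2), Cd69 (37.2), Klf2 (24.9), S1pr1 (16.3), Itga1 (4.29), Klf3 (3.56), Zfp683 (2.98), Itgae (2.30) and S1pr5 (0.469). The neighbours Klf2 and S1pr1 overlapped in range, as did each adjoining pair from Itga1 to Itgae, while the other neighbours did not. In KO the order was Rgs1 (70.2), Cd69 (41.7), S1pr1 (21.8), Klf2 (20.5), Itgae (18.5), Itga1 (11.2), Klf3 (4.23), Zfp683 (2.86) and S1pr5 (0.0809). Itgae thus stood next to last in WT and beside Klf2 in KO, where their ranges overlapped. Over S5 to S7 alone the means of S1pr1 and Klf2 were lower, at 15.5 and 12.0 RPKM, and Itgae stood above both at 18.7 RPKM. The neighbours from Cd69 to Itgae overlapped in KO, and so did Klf3 and Zfp683.

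S8 held the highest value of the 8 samples for 4 of the 9 genes (S1pr1, Klf2, Klf3 and Cd69), against 8.97% of all genes tested, and exceeded the highest other sample more than 1.5 times for 2 of them (S1pr1 and Klf3). Over all genes tested, 0.494% exceeded the highest other sample by that much in S8. Both shares were the lowest of the 8 samples. In the other samples they ran from 10.9% to 15.8% and from 0.793% to 2.11%. S8 was singled out by its values for these genes, so setting them beside these shares is no independent test. Against the mean of S5 to S7, S8 was at 2.62 times for S1pr1, 2.89 for Klf3, 1.59 for Cd69, 0.95 for Itgae and 0.754 for Itga1. S1pr1, Klf3 and Cd69 were thus above the other KO samples in S8, whereas Itgae and Itga1 in S8 were below the mean of those samples and still above every WT sample.

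Some genes outside the 9 also differed between S8 and the other KO samples. Eomes, a transcription factor of memory cells, was at 16.3, 31.8, 19.4 and 52.5 CPM in KO, against 46.3 to 63.6 CPM in WT. For Eomes S8 thus lay within the WT range and S5 to S7 lay below it. Smad3, a mediator of TGF-β signals picked after its values were seen, was at 34.3, 36.9, 33.0 and 96.7 CPM in KO, against 59.4 to 93.9 CPM in WT. Pdcd1, the gene of the PD-1 protein used in the sort, was lowest in S8 (306 CPM, against 459 to 743 CPM in the other 7 samples). Without S8, Smad3 was called lower at -1.08 (adjusted p = 0.0004) and Eomes at -1.28 (adjusted p = 0.000708), and with S8 neither was (edgeR adjusted p = 0.253 and 0.0477). These calls too depend on leaving out a sample singled out by its values.

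**Figure D4:**
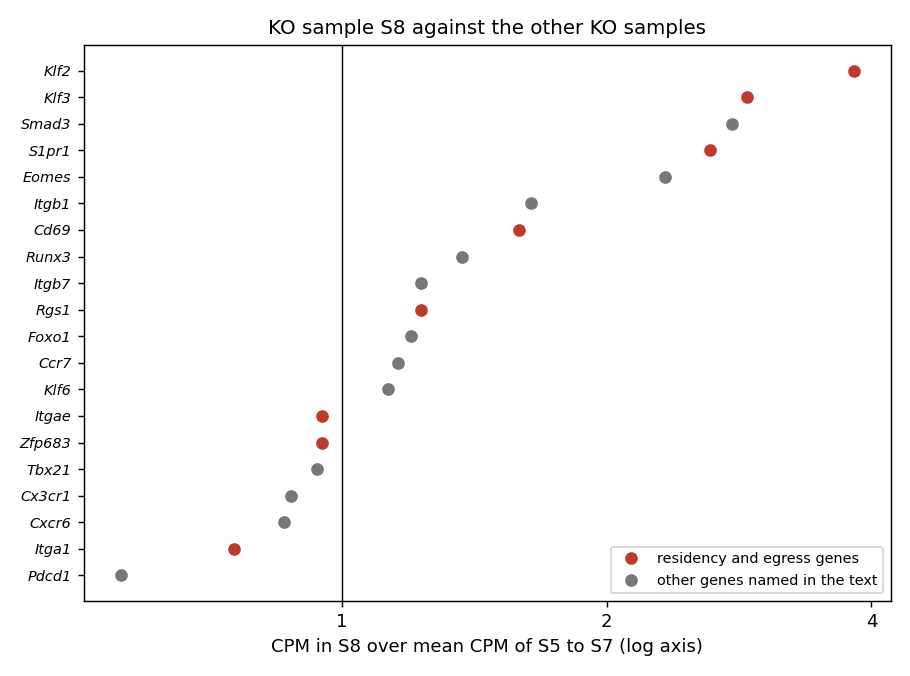
CPM in S8 divided by the mean CPM of the other 3 KO samples (horizontal log axis) for 8 of the 9 genes (red) and for other genes named in the text (grey); S1pr5 is left out because S5 to S7 were at 0. Klf2 (3.82), Klf3 (2.89), Smad3 (2.78) and S1pr1 (2.62) had the highest ratios of the genes plotted, and Pdcd1 (0.561) had the lowest.

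The rest of the sphingosine 1-phosphate axis gave no call. Of 16 other receptors, enzymes, transporters and G protein genes on the list, 12 were tested, 0 were called by edgeR or by DESeq2 in either direction, and the median log2 fold change was 0.06. At an unadjusted p under 0.05, 2 of the 12 were higher and 1 lower, beside 12.4% and 12.1% of all genes. S1pr4, a receptor found on lymphocytes, was at 71.3 to 87.8 CPM in WT and at 92.6, 119, 125 and 128 CPM in KO, and its log2 fold change of 0.52 (adjusted p = 0.00857) missed the fold threshold alone. S1pr2, a receptor that confines cells, was at 18.5 to 24.8 CPM in WT and 13.1 to 19.6 CPM in KO (adjusted p = 0.122). S1pr3 and the exporter Spns2 stayed at or under 1.24 CPM and were not tested.

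Among the other Krüppel-like factors, 10 of 15 were tested, with a median log2 fold change of 0.24. At an unadjusted p under 0.05 in edgeR, 5 of the 10 were higher and 1 lower, beside 12.4% and 12.1% of all genes. By the calling rule 1 was called higher, beside 2.91% of all genes tested. That was Klf4, a regulator of proliferation and of myeloid fate, at 27.3, 30.2, 22.8 and 29.3 CPM in WT and at 47.5, 53.4, 81.9 and 78.5 CPM in KO (log2 fold change 1.25, SE 0.18, edgeR adjusted p = 0.000153). Klf4 thus rose in S8 and the other KO samples alike, unlike Klf2 and Klf3. Klf6 (log2 fold change 0.34, adjusted p = 0.0259) and Klf13 (0.33, adjusted p = 0.0633) were not called.

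Around FOXO1 and KLF2, which together control homing receptors, 12 genes had a median log2 fold change of 0.04, or -0.13 without S8. Of the 12, 2 were called higher and 2 lower, beside 2.91% and 1.99% of all genes tested. Il7r, the interleukin 7 receptor chain, was at 162 to 217 CPM in WT and 345 to 484 CPM in KO (log2 fold change 1.20, edgeR adjusted p = 4.65e-06), and the other was Itgb7. Ccr7, the receptor for entry into lymph nodes, was at 150 to 200 CPM in WT and 72.4 to 101 CPM in KO (log2 fold change -0.90, adjusted p = 0.000119), and the transcription factor Mef2a had a log2 fold change of -0.70 (adjusted p = 0.000632). Foxo1 (0.15) was not called. Il7r and Ccr7, both known targets of FOXO1, therefore moved in opposite directions.

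For 19 other genes known to be higher in resident memory CD8 T cells, the median log2 fold change was 0.12, against -0.01 over all genes. Of the 19, 4 were called higher and 2 lower, beside 2.91% and 1.99% of all genes tested. The 4 were the chemokine gene Xcl1 (1.33, not called by DESeq2), the costimulator Icos (0.86), the inhibitory receptor Ctla4 (0.79) and Cd101 (2.42), a surface glycoprotein that was at 33.0 to 36.8 CPM in WT and 175 to 197 CPM in KO. The 2 that fell were the receptors Cd244a (-1.48) and P2rx7 (-2.78), the latter from 3.84 to 11.3 CPM in WT to 0.328 to 1.29 CPM in KO. Cxcr6, a chemokine receptor of resident cells, had a log2 fold change of 0.12 (adjusted p = 0.553).

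Of 20 other genes known to be higher in circulating memory cells, 19 were tested, with a median of 0.58 against -0.01 over all genes. Of the 19, 3 were called higher and 1 lower, beside 2.91% and 1.99% of all genes tested. Cmah (0.89), Ripor2 (0.61) and Il7r rose and Ccr7 fell, while Cx3cr1, a receptor of effector cells in blood, had a log2 fold change of -0.23 (adjusted p = 0.362). Without S8 Ripor2 was no longer called (edgeR adjusted p = 0.0263) and Eomes was called lower, giving 2 higher and 2 lower. At an unadjusted p under 0.05, 10 of the 19 circulating genes were higher and 3 lower, and 7 of the 19 resident genes were higher and 6 lower, beside 12.4% and 12.1% of all genes. S8 was the highest sample for 9 of the 19 circulating genes and 1 of the 19 resident genes, beside 8.97% of all genes.

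Among 15 transcription regulators of residency, 2 were called higher: Notch1 (log2 fold change 0.77, edgeR adjusted p = 2.71e-05), a receptor that maintains resident cells, and the repressor Gfi1 (1.57, adjusted p = 2.4e-07), at 34.1 to 45.3 CPM in WT and 107 to 127 CPM in KO. Over all genes tested, 2.91% were called higher and 1.99% lower. At an unadjusted p under 0.05 in edgeR, 7 of the 15 were higher and 3 lower, beside 12.4% and 12.1% of all genes. The median over the 15 was 0.26. Without S8 it was 0.10, with 3 called higher, Nr4a3 joining (0.59, edgeR adjusted p = 0.00184), and 1 lower (Eomes), and DESeq2 with all samples called Ahr higher as well. Prdm1 (0.34, adjusted p = 0.107), Runx3 (-0.15, adjusted p = 0.486), Bhlhe40 (-0.31, adjusted p = 0.0401), Tbx21 (0.28, adjusted p = 0.11) and Eomes were not called. Of 10 TGF-β signalling genes, a pathway known to induce Itgae, 0 were called by edgeR with all samples (median 0.13), 3 were higher at an unadjusted p under 0.05 (12.4% of all genes were), DESeq2 called 1 higher (Ldlrad4; 4.02% of all genes were), and without S8 Smad3 was called lower by edgeR and the median was 0.08. Of 9 other RGS genes tested, 0 were called by edgeR, 2 were higher at an unadjusted p under 0.05 and DESeq2 called 1 higher (Rgs9), beside the same shares of all genes. Rgs2 (-0.12) and Rgs16 (-0.11) were close to Rgs1.

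Markers of other cells were summed in each sample. In a bulk sample, fewer cells of a type and less RNA per cell cannot be told apart. The summed myeloid list was at 349 to 921 CPM in WT and 108 to 158 CPM in KO. Of 16 tested genes, 10 were called lower, beside 1.99% of all genes, and the median log2 fold change was -2.77. At an unadjusted p under 0.05 in edgeR, 14 were lower and 0 higher, beside 12.1% and 12.4% of all genes. DESeq2 called 11 lower, beside 3.0% of all genes. The part of the myeloid signal in the results above was not tested beyond a fit with a myeloid score as covariate. In that fit Itgae stayed called (log2 fold change 3.96, edgeR adjusted p = 0.00611) and Itga1 did not (1.62, adjusted p = 0.0149). The score moves with genotype, and that fit called 28 genes higher and 3 lower, against 447 and 306 without it. The endothelial list, of interest since endothelium is rich in S1pr1 and Klf2, summed to 23.0 to 27.0 CPM in WT and 57.2 to 77.9 CPM in KO. That sum was nearly all Pecam1, which T cells also express. Of the 8 genes on the list 2 were tested, and 1, Pecam1, was called higher, beside 2.91% of all genes. Cdh5, Kdr and Tek did not exceed 0.525 CPM, and Emcn was at 0 in every sample. CD4 T cell markers summed to 343 to 427 CPM in WT and 371 to 478 CPM in KO. Of 5 tested genes, 2 were called higher (Zbtb7b and Cd40lg), beside 2.91% of all genes, and the median log2 fold change was 1.19. DESeq2 called 3 higher, Cd4 among them, beside 4.02% of all genes. At an unadjusted p under 0.05 in edgeR, 3 were higher and 0 lower, beside 12.4% and 12.1% of all genes. Cd4 itself was at 1.86 to 6.87 CPM in WT and 7.26 to 26.2 CPM in KO. The NK list was at 49.5 to 62.0 CPM in WT and 28.9 to 53.0 CPM in KO, with 0 of 3 tested genes called by edgeR, 1 higher and 2 lower at an unadjusted p under 0.05, and 1 called each way by DESeq2, beside the shares of all genes given above. The B cell list was at 46.9 to 81.7 CPM in WT and 16.1 to 44.6 CPM in KO. Of its 3 tested genes, 1 was called lower (Ighm), beside 1.99% of all genes. At an unadjusted p under 0.05 in edgeR, 1 was higher and 1 lower. Fibroblast and epithelial lists did not exceed 6.28 CPM. The CD8 and gate list was at 6160 to 6710 CPM in WT and 5900 to 6500 CPM in KO. The part of the endothelial, CD4, NK and B cell signals in the results was not tested.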

How the data were processed

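RNA-seq gene counts of 4 WT and 4 KO samples were used. The authors deposited raw counts per gene, made by aligning paired reads with STAR to GRCm38 and counting with featureCounts on a GENCODE annotation. Whether counting used strand is not given in the sources used here. Columns were assigned to genotype from the sample numbers, which carry no replicate number. Counts were tested with edgeR 4.0.16 (R 4.3.3) after filterByExpr and TMM normalization, by genotype alone. A call required a fold change over 1.5 and an adjusted p under 0.01. CPM used TMM library sizes, and RPKM the merged exon length in GENCODE. Exact permutation tests (scipy 1.17.1) used log2 CPM with a prior count of 2 and 70 arrangements; their p-values are unadjusted over the genes. Standard errors were derived from the log2 fold change and the F statistic. Code was tested on simulated data. Alternatives used other scalings, filters and thresholds, DESeq2 1.42.0, GC offsets (mgcv 1.9.3), a myeloid covariate and each sample left out. The 9 genes and all lists were chosen with earlier results of these data known. Named were the 9 genes, Kdm1a, called genes of the lists, 22 further genes set by name in those lists (1 is not reported here) and markers by list. Smad3, Itgb2, Nr4a3, Ahr, Ldlrad4, Rgs9 and C230096K16Rik were named after their values were seen. WT samples pool 2 mice and KO samples hold 1, so pooling and genotype cannot be told apart. Every pair of replicates differed beyond sampling noise (median chi-square per gene 3.43 to 5.5). Depth gave a floor of 3 counts, 0.106 to 0.25 CPM. Of the 55335 gene IDs, 55154 matched GENCODE M21.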

Additional observations from a re-analysis of the deposited data

Results flagged for a closer look

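S1pr5 in the KO group was picked out because 1 sample stood far from the others: S8 held 23 counts (0.809 CPM) and the other 3 KO samples held 0, so the gap of S8 to the nearest other sample was the whole range of the group (a ratio of 1.0 on the log2 CPM scale, above Dixon's 95% critical value for 4 samples). With 3 samples tied at 0, any count in the fourth gives that ratio, so the comparison with the critical value says nothing further here, and the usual rate of about 1 in 20 by chance does not apply. It was 1 of 18 groups examined. On the log2 CPM scale the KO ratios of S1pr1 (0.638), Klf2 (0.751) and Klf3 (0.516) did not pass the limit, whereas on the CPM scale that of Klf2 did (0.877) and those of S1pr1 (0.759) and Klf3 (0.69) did not.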

How the results depend on the processing

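Itgae was called in all 19 alternatives, at log2 fold changes of 2.77 to 3.28 with each sample left out. Itga1 was at 1.34 to 1.48 with each sample left out and lost its call in 1 alternative, the myeloid covariate (1.62, edgeR adjusted p = 0.0149), which left 1 of the 9 genes called higher. With that covariate, which moves with genotype, the direction turned for S1pr1 (-0.33), Klf3 (-0.996), Cd69 (-0.31) and Zfp683 (0.90), none of them called, Klf2 went to -2.26 (edgeR adjusted p = 0.405) and S1pr5 to -3.47 (adjusted p = 0.79), and 28 genes were called higher and 3 lower, against 447 and 306. The cause was not tested. With each sample left out, genes called higher ran from 347 to 452 and lower from 199 to 303, the 199 without S2 being below the full count by over 1.5 times, and 0 to 1 of the 9 genes were called lower, that 1 being Klf2 without S8. Over the same fits Klf2 ran from -1.05 to -0.018, S1pr1 from -0.069 to 0.61, Klf3 from -0.31 to 0.50, Cd69 from -0.032 to 0.31 and Zfp683 from -0.23 to 0.080. The direction of S1pr1, Klf3 and Cd69 turned without S8, and that of Zfp683 without S2, S3 or S7. S1pr5 ran from -7.07 to -1.92 in 6 of these fits, the lowest being a fit to samples at 0 and no bound; without S1 or S2, and with the filter of 1 CPM in 4 samples, it was not tested. A test against the 1.5-fold limit called 165 genes higher and 130 lower, and an adjusted p under 0.05 called 695 and 551. No filter on low counts gave 531 lower and DESeq2 461. The scalings tried shifted the median of all genes by less than 0.1 on the log2 scale. No paired analysis was possible because the columns carry no replicate number.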
